A study of Mus musculus with 120 samples.

Results

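The striatum of 10-week-old mice was compared between 2 genotypes in 8 RNA-seq libraries, 4 from Atxn1 175Q/2Q mice and 4 from WT mice, out of 120 libraries in the series. The libraries were chosen by their labels alone (region, age and genotype), and 175Q was compared with WT across all genes. All mice were C57BL/6J. The 175Q mice carry 1 Atxn1 allele with an expanded CAG repeat knocked into the mouse gene and 1 allele with the mouse's own short repeat, so the expanded protein is made wherever Atxn1 is expressed. Each group held 2 females and 2 males, and each mouse also gave cerebellum, brainstem, cortex and hippocampus. Another genotype, 175QK772T, carries the same expansion with K772T, an amino acid change that lies within ataxin-1's signal for entry into the nucleus. Its 4 striatal libraries, 3 of them from females, entered the fit to help estimate the spread between mice. Striatum of 26-week-old mice, with 4 libraries per genotype, is compared further below.

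Spinocerebellar ataxia type 1 is a dominant disease in which a lengthened polyglutamine tract in ataxin-1, a nuclear protein that binds the transcriptional repressor capicua, leads to loss of coordination and, with time, to cognitive and motor decline. The striatum is best known in polyglutamine disease from Huntington's disease. Nearly all of its neurons are GABAergic projection neurons, which receive cortical and thalamic glutamate and midbrain dopamine. Those of the direct pathway carry the dopamine D1 receptor, substance P and dynorphin, and those of the indirect pathway carry the D2 receptor, an adenosine receptor (Adora2a) and enkephalin. Both kinds share a set of very abundant transcripts for cyclic nucleotide signalling, among them DARPP-32 (Ppp1r1b), the phosphodiesterase Pde10a and the adenylyl cyclase Adcy5. The remaining neurons are cholinergic and GABAergic interneurons.

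Levels below are CPM, read pairs scaled to a common library size with edgeR's TMM factors, given for replicates 1 to 4 of a group in turn. Where levels of different genes are compared they are divided by gene length (FPKM). Differences are log2 fold changes of 175Q minus WT ± their standard error, and a gene was called to rise or fall at a Benjamini-Hochberg adjusted p below 0.05 in edgeR's quasi-likelihood test. The labels give each library of a group its own mouse, so the p-values measure the spread between mice.

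The 12 striatal libraries held 77061358 to 93146278 counted read pairs, of which 5.79 to 6.98% came from the mitochondrial genome, and no library was a near copy of another. The first principal component (30.3% of the variance) set all 4 WT libraries apart from all 4 of 175Q. The 175Q libraries had TMM factors of 1.03 to 1.04 against 0.942 to 0.984 in WT, and scaling by total counts alone raised the median log2 fold change of all genes by 0.12. Markers of tissue beside the striatum differed between libraries. The summed level of 12 markers of cortical excitatory neurons was 210.3 to 405 CPM in WT and 120.1 to 195 CPM in 175Q, and that of 12 choroid plexus markers was 7072 CPM in 175Q replicate 4 against 374 to 988 CPM in the other 7 libraries. In 175Q cortex itself 9 of the 12 cortical markers fell and 2 rose, so their level need not reflect the amount of cortical tissue alone. Both summed levels are given again beside the results they move with.

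Atxn1 itself was at 115, 115, 129 and 99.6 CPM in WT and at 116, 107, 111 and 108 CPM in 175Q. The groups overlapped and the gene did not pass the test (-0.05 ± 0.06, adjusted p = 0.548). Counts per gene do not separate the 2 alleles, so they do not check the genotype. Of 184 other genes tested within 10 Mb of Atxn1 on chromosome 13 (GRCm38, 45549755 to 45965008, minus strand), 77 were called (41.8%), 38 higher and 39 lower. Of all genes tested 32.7% were called.

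Across the genome 175Q striatum differed from WT in many genes, in most of them by less than 2-fold. Of 20998 genes tested, 6876 were called (32.7%). Of these 3390 rose (16.1%) and 3486 fell (16.6%), with a median log2 fold change over all genes of 0.01. A change of over 2-fold was found in 188 genes that rose and 257 that fell. With total counts in place of TMM scaling 6426 genes rose and 2270 fell, so that 73.9% of calls were rises in place of 49.3%. The plot of all genes sets each difference against the level of the gene.

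**Figure D1:**
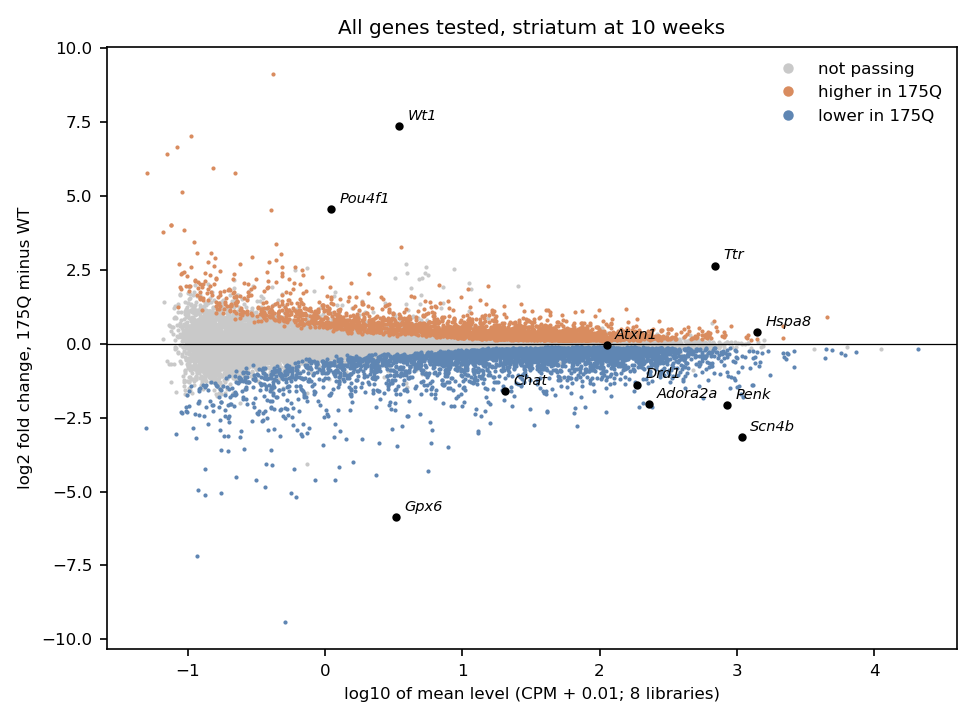
Log2 fold change of 175Q minus WT (vertical axis) against the log10 of the mean level in CPM plus 0.01 over 8 libraries (horizontal axis) for all 20998 genes tested, coloured by call. Named genes are in black whether or not they passed; Scn4b, Penk and Adora2a lie far below 0 among abundant genes, Wt1 and Pou4f1 far above it at low level, and Atxn1 and Ttr did not pass.

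All 24 tested transcripts that both kinds of projection neuron share fell in 175Q, and none of them overlapped with WT. Over all genes 16.6% were lower by the test and 16.4% were lower without overlap (33.2% without overlap in either direction). By the test 16.1% were higher. List counts and remarks on overlap below are to be read beside these shares, and genes picked for a small adjusted p tend to lack overlap. Their median log2 fold change was -1.05, and 12 of them fell by over 2-fold. Their summed level was 15195 to 20378 CPM in WT and 7312 to 8093 CPM in 175Q. In bulk tissue, fewer projection neurons and less RNA of these genes in each neuron cannot be told apart. All 24 fell under every alternative tried, including total-count scaling and a term for the cortical marker level. The plot of levels by library shows the 2 groups of points apart for each of the 23 it holds.

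**Figure D2:**
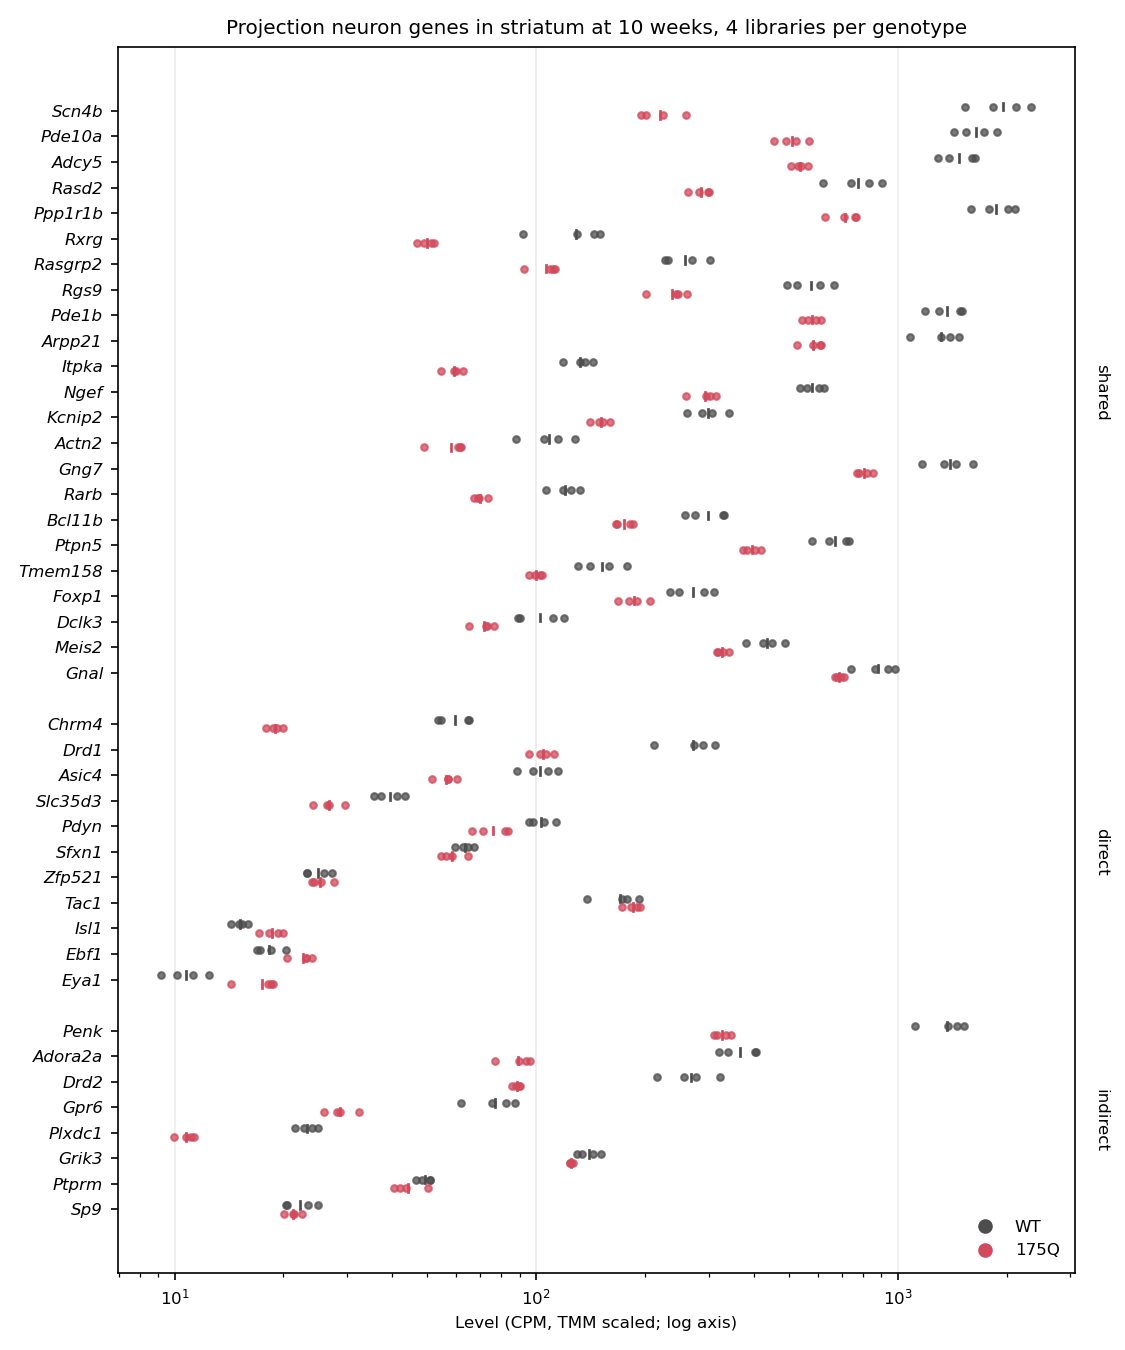
Level of 42 projection neuron genes in each library (CPM, TMM scaled, log axis); points are single mice, vertical ticks the mean of 4, WT in grey and 175Q in red. All 23 shared genes shown sit lower in 175Q with no overlap, as do Drd1, Chrm4, Drd2, Penk and Adora2a, while Tac1, Zfp521 and Sp9 overlap and Eya1 sits higher.

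Scn4b, the sodium channel beta-4 subunit, fell furthest of the shared genes (GRCm38 chromosome 9, 45138395 to 45154152, plus strand). It was at 1832, 2121, 2334 and 1528 CPM in WT and at 224, 195, 202 and 259 CPM in 175Q. The highest 175Q library was thus far below the lowest WT library, and the fold was 8.88 (-3.15 ± 0.14, adjusted p = 2.49e-08). Per gene length Scn4b went from 392 to 44.2 FPKM.

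Enzymes and regulators of cyclic nucleotides followed. Pde10a, the phosphodiesterase of striatal projection neurons, was at 1539, 1735, 1875 and 1427 CPM in WT and 523, 455, 491 and 569 CPM in 175Q (-1.69 ± 0.11, adjusted p = 1.76e-07). Adcy5, the main striatal adenylyl cyclase, was at 1382, 1631, 1606 and 1291 CPM in WT and 564, 531, 505 and 541 CPM in 175Q (-1.46 ± 0.10, adjusted p = 4.35e-07). For both genes the 4 175Q mice lay close together, below every WT mouse. Ppp1r1b was at 1780.0, 2009.8, 2102 and 1588 CPM in WT and 765, 627, 712 and 759 CPM in 175Q (-1.39 ± 0.11, adjusted p = 1.12e-06). It encodes DARPP-32, which turns dopamine signals into inhibition of protein phosphatase 1. Pde1b, a calmodulin-dependent phosphodiesterase, fell by 1.24 on the log2 scale. Rgs9, which speeds the shutting off of G protein signals in these cells, fell by 1.28. The olfactory-type G protein alpha subunit Gnal fell least of the 24, from 883 ± 106 to 687 ± 17.3 CPM (SD, n = 4; log2 fold change -0.36 ± 0.08).

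Among the other shared genes, the small G protein Rasd2 was at 741, 833, 905 and 620.4 CPM in WT and 299.9, 263, 282 and 298 CPM in 175Q (-1.44 ± 0.11, adjusted p = 7.17e-07). It was lower in all 4 175Q mice than in any WT mouse. The guanine nucleotide exchange factors Rasgrp2 and Ngef fell by 1.28 and 0.99 on the log2 scale, the potassium channel partner Kcnip2 by 0.99, the inositol trisphosphate kinase Itpka by 1.16 and the tyrosine phosphatase Ptpn5 (STEP) by 0.76. Further shared signalling and structural genes changed by -1.18 (Arpp21), -0.91 (Actn2), -0.79 (Gng7), -0.60 (Tmem158) and -0.51 (Dclk3).

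The shared transcription factors fell too. Bcl11b (Ctip2), needed for projection neuron differentiation, was at 275, 329, 330.2 and 258 CPM in WT and 185, 166, 167 and 182 CPM in 175Q (-0.77 ± 0.09, adjusted p = 3.88e-05). Foxp1 was at 248, 290.3, 310.1 and 234 CPM in WT and 190.4, 168, 180.5 and 206 CPM in 175Q (-0.54 ± 0.10, adjusted p = 7.97e-04), and Meis2 at 424, 449, 488 and 381 CPM in WT and 341, 315, 318 and 328 CPM in 175Q (-0.42 ± 0.08, adjusted p = 0.00114). None of the 3 overlapped between the groups. The retinoid receptors Rxrg and Rarb fell by 1.37 and 0.78.

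The indirect pathway was lower in its receptors and its peptide, with 6 of 8 tested markers down, none up and a median of -1.27. Penk, the enkephalin precursor (chromosome 4, 4133531 to 4138819, minus strand), was at 1377, 1455, 1518 and 1112 CPM in WT and 345, 334, 310.3 and 316 CPM in 175Q, 4.19-fold lower (-2.07 ± 0.13, adjusted p = 1.13e-07). Adora2a, the adenosine receptor of this pathway (chromosome 10, 75316877 to 75334784, plus strand), was at 338, 402, 406 and 320.1 CPM in WT and 93.9, 76.8, 89.6 and 96.1 CPM in 175Q (-2.04 ± 0.10, adjusted p = 2.49e-08). Drd2 was at 257, 277, 322 and 216 CPM in WT and 89.5, 85.7, 87.9 and 90.0 CPM in 175Q (-1.5997 ± 0.10, adjusted p = 1.64e-07). For all 3 the highest 175Q mouse stood far below the lowest WT mouse. The constitutively active receptor Gpr6 fell by 1.42 and the membrane protein Plxdc1 by 1.11. Grik3 was barely past the threshold (-0.16 ± 0.05, adjusted p = 0.0365) and lost its call without any 1 of 7 of the 8 libraries, WT replicate 3 being the exception (adjusted p 0.0566 to 0.121). Ptprm (-0.16 ± 0.06, adjusted p = 0.0637) and the transcription factor Sp9 (-0.07 ± 0.10, adjusted p = 0.636) did not pass, although Sp9 did with the cortical marker term (-0.32, adjusted p = 0.0121) and Ptprm did in 3 of the 16 alternatives.

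Of 11 direct pathway markers tested, 5 fell (45.5%, beside 16.6% of all genes), 2 rose (18.2%, beside 16.1% of all genes) and 4 did not pass, with a median of -0.12. Drd1 was at 273, 289, 313 and 212 CPM in WT and 107, 102, 95.7 and 112 CPM in 175Q (-1.38 ± 0.12, adjusted p = 1.68e-06), and the muscarinic M4 receptor Chrm4 at 54.6, 65.3, 64.6 and 53.5 CPM in WT and 19.9, 17.9, 18.7 and 19.2 CPM in 175Q (-1.65 ± 0.10, adjusted p = 8.24e-08). Both receptors were without overlap. Tac1, the substance P precursor of the same neurons, was at 172, 179, 192 and 138 CPM in WT and 193, 183, 173 and 190.5 CPM in 175Q, overlapped and did not pass (0.12 ± 0.10, adjusted p = 0.397). Pdyn, the dynorphin precursor, was at 104.7, 113, 97.9 and 95.2 CPM in WT and 82.1, 83.6, 71.3 and 66.2 CPM in 175Q (-0.44 ± 0.11, adjusted p = 0.00683). The 2 peptide genes thus had smaller differences in value than the 2 receptors. Asic4 and Slc35d3 fell by 0.86 and 0.56. The 2 that rose are transcription regulators: Eya1 was at 11.3, 10.2, 12.5 and 9.18 CPM in WT and 18.7, 14.3, 18.5 and 18.1 CPM in 175Q (0.70 ± 0.11, adjusted p = 2.54e-04), and Ebf1 changed by 0.31 ± 0.08, adjusted p = 0.00883. Isl1, which drives the direct pathway fate, came close to the threshold (0.30 ± 0.11, adjusted p = 0.0503), passing in 5 of the 16 alternatives. Zfp521 (0.02) and Sfxn1 (-0.12) did not pass. With the cortical marker term the Ebf1 call was lost (adjusted p = 0.202) and Sfxn1 passed (-0.22, adjusted p = 0.0406), as it did without 175Q replicate 2.

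Within the striatum, striosomes and matrix are compartments with different inputs. Of 7 striosome markers 3 fell and none rose, and of 5 matrix markers 2 fell and 1 rose. Of all genes tested 16.6% fell and 16.1% rose. Kremen1, a marker in the striosome list, was at 54.6, 58.1, 54.2 and 49.1 CPM in WT and 29.4, 24.6, 32.3 and 31.7 CPM in 175Q (-0.87 ± 0.09, adjusted p = 9.85e-06), and Sema5b changed by -0.55 ± 0.07, adjusted p = 5.38e-05. The mu opioid receptor Oprm1, which marks striosomes, did not pass (0.38 ± 0.26, adjusted p = 0.292). In the matrix list Id4 was at 254, 282, 323 and 281 CPM in WT and 131, 118, 125 and 131 CPM in 175Q (-1.18 ± 0.07, adjusted p = 8.96e-08), whereas calbindin (Calb1) did not pass (-0.26 ± 0.11, adjusted p = 0.0824) and guanine deaminase (Gda) rose (0.29 ± 0.07, adjusted p = 0.00429), with overlap. Gda lost its call with the cortical marker term (adjusted p = 0.0923), and Calb1 then passed (-0.47, adjusted p = 0.0127), as it did in 4 other alternatives. The matrix count was 1 in place of 2 without any 1 of WT replicates 1 and 2 and 175Q replicates 1, 2 and 3, and with total counts. Mfge8, the other striosome fall, lost its call in 7 of the 16 alternatives (adjusted p up to 0.167). The striosome count was then 2 in place of 3. This held without any 1 of WT replicates 1 and 2 and 175Q replicates 1, 3 and 4, with total counts and with the cortical marker term.

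Cholinergic interneuron genes fell in 5 of 7 and rose in none, with a median of -1.296 and a summed level of 119 to 145 CPM in WT and 52.02 to 67.0 CPM in 175Q. Chat, which makes acetylcholine, was at 29.96, 34.6, 31.6 and 27.5 CPM in WT and 10.4, 10.6, 10.5 and 9.12 CPM in 175Q (-1.61 ± 0.10, adjusted p = 1.31e-07). The choline transporter Slc5a7 was at 49.5, 51.9, 56.3 and 45.2 CPM in WT and 18.6, 22.5, 19.02 and 18.3 CPM in 175Q (-1.37 ± 0.09, adjusted p = 3.36e-07), and the vesicular acetylcholine transporter Slc18a3 at 11.2, 11.3, 9.38 and 10.3 CPM in WT and 4.04, 4.76, 3.66 and 3.85 CPM in 175Q (-1.37 ± 0.13, adjusted p = 4.19e-06). None of these overlapped. The glutamate transporter Slc17a8 fell by 1.18. The transcription factors Lhx8 (-0.24 ± 0.18, adjusted p = 0.343) and Gbx2 (0.20 ± 0.38, adjusted p = 0.731) were the list's members that did not pass.

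Of 10 GABAergic interneuron markers 7 fell and none rose, with a median of -0.79. Npy, a peptide of the low-threshold-spiking interneurons, was at 55.3, 52.1, 45.99 and 47.6 CPM in WT and 24.6, 23.4, 27.05 and 25.5 CPM in 175Q (-0.9999 ± 0.07, adjusted p = 5.83e-07). Nos1, the neuronal nitric oxide synthase of the same cells, was at 87.1, 89.1, 93.2 and 73.6 CPM in WT and 43.5, 56.2, 45.8 and 45.6 CPM in 175Q (-0.84 ± 0.10, adjusted p = 2.60e-05). Sst was at 175.5, 182, 125 and 148 CPM in WT and 92.3, 109.8, 90.8 and 88.2 CPM in 175Q (-0.73 ± 0.12, adjusted p = 5.54e-04). The 3 genes were without overlap. Kit and Pthlh fell by 0.54 and 0.86. Pvalb and Vip, named after their values were seen, fell by 0.86 and 1.66. Several of these genes are also expressed by cortical interneurons, and the cortical marker level was lower in 175Q. With that level as a term 6 of the 10 fell.

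Dopamine and cAMP signalling held 16 falls and 4 rises among 24 genes, the rises a share of 16.7% beside 16.1% of all genes, and 10 of the 24 are also projection neuron markers described above. Rgs4, a regulator of G protein signals, was at 901, 936, 1012 and 726 CPM in WT and 259, 230.1, 237 and 264 CPM in 175Q (-1.85 ± 0.09, adjusted p = 3.51e-08). The 4 that rose were the dopamine D3 receptor Drd3 (1.36), the protein kinase A subunits Prkar1b (0.43) and Prkacb (0.30), and Creb1 (0.17), which were named after their values were seen. With the cortical marker term 2 of these rises passed.

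Calcium signalling genes fell in 16 of 25 and rose in 1, with a median of -0.52. Ryr1, a calcium release channel of the endoplasmic reticulum, was at 99.6, 125, 139.6 and 112 CPM in WT and 18.99, 19.2, 15.8 and 15.4 CPM in 175Q (-2.78 ± 0.14, adjusted p = 4.38e-08). The neuronal calcium sensor hippocalcin (Hpca) was at 1509.7, 1573, 1702 and 1268 CPM in WT and 591, 519, 565 and 584 CPM in 175Q (-1.42 ± 0.09, adjusted p = 1.16e-07). The inositol trisphosphate receptor Itpr1 was at 1229.9, 1261, 1375 and 1106 CPM in WT and 591, 527, 548 and 632 CPM in 175Q (-1.11 ± 0.07, adjusted p = 2.42e-07). No 175Q mouse reached the WT range in the 3 genes. Camk4 and Prkcb, kinases that respond to calcium, fell by 1.14 and 0.94. The L-type channel gene Cacna1d (0.22), named after its value was seen, was the rise, and with the cortical marker term no gene of the list rose.

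Potassium channel genes fell in 15 of 20 and rose in none, with a median of -0.46. The inward rectifier Kcnj4, which holds projection neurons at their resting potential, was at 187, 208, 191 and 176 CPM in WT and 101, 81.6, 99.7 and 106 CPM in 175Q (-0.98 ± 0.08, adjusted p = 1.95e-06). Kcnh3 was at 151, 169, 159 and 146 CPM in WT and 77.0, 61.6, 74.97 and 69.7 CPM in 175Q (-1.14 ± 0.08, adjusted p = 3.74e-07). Kcnq3, an M-current subunit, and Kcnv1, a silent modifier subunit, fell by 0.82 and 0.66. None of the 4 overlapped between the groups.

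Among glutamate receptor genes 14 of 20 fell and none rose. The scaffold Homer1 was at 238, 242, 240.4 and 193 CPM in WT and 104, 100.2, 92.3 and 100.1 CPM in 175Q (-1.20 ± 0.07, adjusted p = 6.46e-08). The metabotropic receptors Grm4 and Grm3 fell by 1.21 and 0.82, and the kainate receptor subunit Grik2 by 0.74. GABA receptor genes moved in both directions, 3 up and 3 down of 14, shares near those of all genes. The delta subunit Gabrd, part of extrasynaptic receptors, was at 129, 142, 149 and 128 CPM in WT and 45.9, 40.8, 45.2 and 49.1 CPM in 175Q (-1.602 ± 0.07, adjusted p = 1.76e-08). Gabra4, its usual partner, fell by 0.45 and Gabbr1 by 0.25. The synaptic subunit Gabra2 changed by 0.28, and Gabrg1, named after its value was seen, by 0.31. The rises were 0 with the cortical marker term, 7 with total counts, 5 with no filter on low counts, and 1 without WT replicate 1, WT replicate 3 or 175Q replicate 2. Without the filter 5 genes fell.

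Neuropeptide and opioid genes fell in 10 of 16 and rose in 1. The delta and kappa opioid receptors Oprd1 and Oprk1 fell by 1.598 and 1.42, and the substance P receptor Tacr1, carried by interneurons, by 1.28. Neurotensin (Nts), named after its value was seen, rose by 0.73, and with the cortical marker term no gene of the list rose. Cnr1, the cannabinoid receptor that projection neurons carry on their terminals, was at 377, 413, 479 and 310.2 CPM in WT and 85.2, 95.5, 85.7 and 90.7 CPM in 175Q (-2.14 ± 0.10, adjusted p = 2.49e-08). All 4 175Q values were far below the lowest WT value. The enzymes that make and break its lipid ligand fell by 0.72 for Dagla, 0.28 for Daglb and 0.36 for Mgll, and Faah did not pass (0.20 ± 0.13, adjusted p = 0.271). Faah rose by 0.59 with the cortical marker term (adjusted p = 0.0011). Retinoid signalling genes fell in 9 of 16 and rose in none. Beside the 2 receptors above these included the binding protein Crabp2 (-1.46 ± 0.16, adjusted p = 1.40e-05), the carrier Rbp4 (-0.82) and the retinoic acid synthesis enzyme Aldh1a1 (-1.13).

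Immediate early genes, which neurons switch on with activity, fell in 8 of 15 and rose in none. Egr3 was at 153, 150.000, 141 and 140.4 CPM in WT and 82.9, 79.1, 75.1 and 72.8 CPM in 175Q (-0.91 ± 0.06, adjusted p = 3.42e-07). Egr1 was at 244, 172, 189.7 and 159 CPM in WT and 119, 128, 94.1 and 73.4 CPM in 175Q (-0.89 ± 0.10, adjusted p = 2.58e-05). Egr2 was at 10.8, 4.74, 5.51 and 5.50 CPM in WT and 1.43, 2.22, 0.835 and 0.618 CPM in 175Q (-2.45 ± 0.25, adjusted p = 1.07e-05). In WT the replicate 1 mouse was highest for Egr1 and Egr2, and the groups stayed apart for all 3. Dusp1 changed by -0.56 ± 0.09, adjusted p = 2.50e-04. The orphan receptor Nr4a1 overlapped and did not pass (-0.22 ± 0.29, adjusted p = 0.596).

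Genes that capicua represses, feedback regulators of growth factor signalling among them, fell in 8 of 12 tested and rose in none, with a median of -0.36. Spry2, an inhibitor of receptor tyrosine kinase signals, was at 62.2, 56.5, 58.1 and 50.9 CPM in WT and 34.1, 34.7, 35.7 and 35.4 CPM in 175Q (-0.70 ± 0.06, adjusted p = 1.66e-06). The ETS factor Etv5 was at 85.8, 80.0, 74.0 and 73.0 CPM in WT and 51.1, 53.9, 46.1 and 46.8 CPM in 175Q (-0.66 ± 0.06, adjusted p = 2.98e-06). Dusp6, a phosphatase of ERK, was at 43.4, 29.05, 29.5 and 27.6 CPM in WT and 20.1, 24.5, 19.4 and 18.2 CPM in 175Q (-0.65 ± 0.10, adjusted p = 3.37e-04). The 3 genes were lower in each 175Q mouse than in each WT mouse. Shc3 and Spred1 fell by 0.50 and 0.33. With the cortical marker term 5 of the 8 falls passed. In 175QK772T 3 of 12 fell, where 10.3% of all genes fell, against 16.6% in 175Q.

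The octamers that capicua binds (TGAATGAA, TGAATGGA, TCAATGAA and TCAATGGA, on either strand) were looked for in the 250 bases before each annotated start in RefSeq's promoter table (GRCm38.p6). At least 1 stood before 2 of the 7 capicua targets, 2 of the 19 shared projection neuron genes and 1003 of all 27025 genes (3.71%) that the table holds. A gene counted if any of its windows held a match. The 19 shared genes had 36 windows and the 7 targets 9, against 32851 for all 27025 genes. The shared genes thus had more windows per gene, and their share is not like for like with 3.71%. Among genes tested here the share was 2.71% (368 of 13560), against 2.8% of those that fell and 2.83% of those that rose. The windows of Spry2 (chr14:105896820-105897069, minus strand), Dusp6 (chr10:99262981-99263230, plus strand) and the projection neuron genes Ptpn5 (chr7:47132599-47132848, minus strand) and Pde1b (chr15:103514727-103514976, plus strand) are shown because these members of the 2 lists fell and hold the motif. They run 5′ to 3′ towards the start. Ptpn5 and Pde1b also have other annotated starts, whose windows held no match. Capitals mark the octamer or its reverse complement, whose first base lies 54, 24, 220 and 246 bases before the start in turn.
Spry2: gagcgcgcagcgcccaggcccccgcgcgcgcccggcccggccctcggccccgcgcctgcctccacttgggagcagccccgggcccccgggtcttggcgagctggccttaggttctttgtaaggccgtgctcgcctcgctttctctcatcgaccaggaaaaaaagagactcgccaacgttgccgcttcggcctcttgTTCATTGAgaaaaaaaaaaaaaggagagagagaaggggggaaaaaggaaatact
Dusp6: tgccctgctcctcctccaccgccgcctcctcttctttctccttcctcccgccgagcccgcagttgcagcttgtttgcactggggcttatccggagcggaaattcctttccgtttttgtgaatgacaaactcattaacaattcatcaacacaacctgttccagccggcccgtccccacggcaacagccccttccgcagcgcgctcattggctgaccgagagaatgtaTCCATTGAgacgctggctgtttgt
Ptpn5: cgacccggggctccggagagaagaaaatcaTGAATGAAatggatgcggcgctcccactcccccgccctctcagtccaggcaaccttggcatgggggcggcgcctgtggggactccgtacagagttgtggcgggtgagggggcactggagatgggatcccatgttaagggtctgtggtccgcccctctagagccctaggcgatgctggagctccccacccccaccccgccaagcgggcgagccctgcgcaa
Pde1b: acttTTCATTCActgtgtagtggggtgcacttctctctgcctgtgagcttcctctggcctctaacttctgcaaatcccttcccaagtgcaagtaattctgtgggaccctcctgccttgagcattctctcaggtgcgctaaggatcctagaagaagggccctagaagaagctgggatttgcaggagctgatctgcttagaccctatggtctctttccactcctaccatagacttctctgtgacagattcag
A match describes these letters only and does not show binding in these tissues.

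Of 15 genes for proteins that work with ataxin-1, 1 rose and 1 fell (6.67% each, beside 16.1% and 16.6% of all genes). Hdac3, a histone deacetylase, was at 71.1, 74.9, 71.7 and 71.4 CPM in WT and 92.2, 93.9, 94.2 and 92.7 CPM in 175Q (0.37 ± 0.04, adjusted p = 3.87e-05). Hey1, a Notch effector, was at 57.3, 63.8, 66.2 and 54.8 CPM in WT and 37.5, 35.7, 39.02 and 39.3 CPM in 175Q (-0.68 ± 0.06, adjusted p = 3.17e-06). Neither overlapped. Kat5 (0.09), U2af2 (-0.09) and Nlk (-0.10) did not pass. With total counts 6 of the 15 rose.

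Of 16 developmental transcription factors with enough reads to be tested, 5 rose to a low level in 175Q, 1 fell and 10 did not pass, among them Tal1 (-0.06 ± 0.23, adjusted p = 0.868). Wt1, a zinc finger factor of kidney and gonad development (chromosome 2, 105126529 to 105173616, plus strand), had 13 read pairs in the 4 WT libraries together and 2442 in those of 175Q. Its level was 0.0130, 0.0905, 0 and 0.0528 CPM in WT and 8.42, 6.47, 5.64 and 7.17 CPM in 175Q (7.36 ± 0.35, adjusted p = 2.49e-08), 1.12 FPKM on average in 175Q. Pou4f1 (Brn3a), a factor of sensory and habenular neurons, was at 0.0777, 0.0566, 0.105 and 0.119 CPM in WT and 2.18, 1.597, 2.18 and 2.54 CPM in 175Q (4.56 ± 0.27, adjusted p = 1.06e-07). Onecut1 was at 0.104, 0.0113, 0 and 0.0132 CPM in WT and 1.09, 0.634, 0.690 and 0.607 CPM in 175Q (4.52 ± 0.56, adjusted p = 5.17e-05), and Pax2 changed by 2.88 ± 0.58, adjusted p = 0.00192. In these 4 genes the lowest 175Q mouse was above the highest WT mouse. For Wt1 and Pou4f1 this was a condition of being named among the largest rises. Twist1, named after its value was seen, rose by 2.104.

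Hox genes, which set position along the trunk and hindbrain, were likewise low or silent in WT. Hoxc4 (chromosome 15, 103018934 to 103036852, plus strand) had no reads in WT and 289 in 175Q, 0.832, 0.917, 0.630 and 0.905 CPM, at least 87.2-fold higher against a floor of 3 counts over the WT group. Hoxc6 had none in WT and 68 in 175Q, at least 20.5-fold higher by the same floor. Hoxc5 had 1 read in WT and 101 in 175Q, a ratio of 91.4 with a 95% exact counting interval of 16.05 to 3647. Floors and intervals cover counting error only. Hoxd8 (3.44 ± 0.75, adjusted p = 0.00346) and Hoxa7 (1.84 ± 0.53, adjusted p = 0.0172) also passed, the latter not without WT replicate 4 (adjusted p = 0.0544) or with the cortical marker term (adjusted p = 0.0851). Annotated Hoxc4 and Hoxc5 overlap on the chromosome, so their counts are uncertain. Only 6 of 28 Hox genes and 16 of 30 developmental factors had enough reads to be tested, and a gene silent in WT is tested only where 175Q expresses it, so no share of calls among them is given. Of the tested Hox genes Hoxd1 did not pass (-0.96 ± 0.41, adjusted p = 0.0895).

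**Figure D3:**
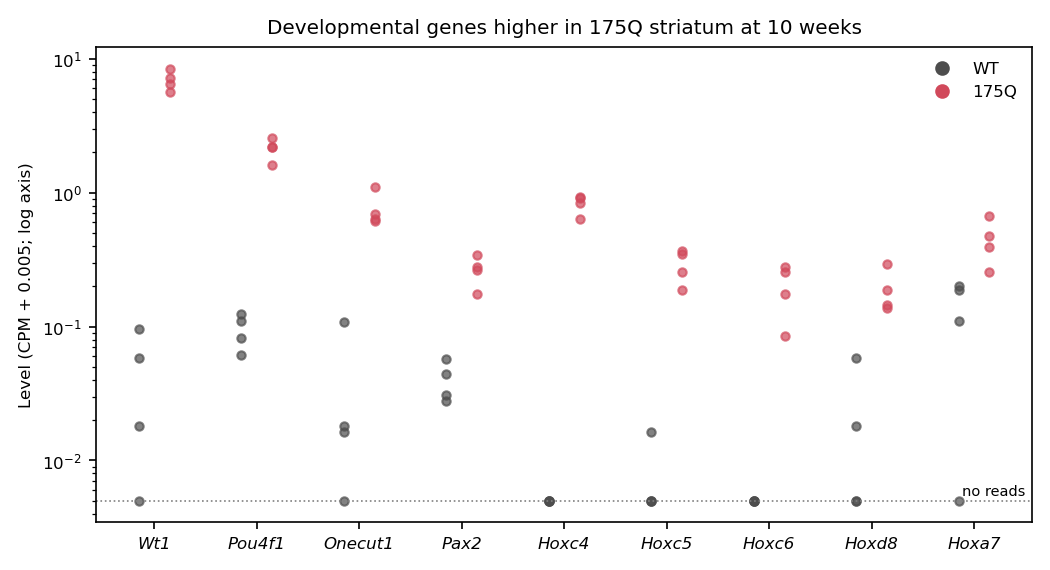
Level of 9 developmental genes in each library (CPM plus 0.005, log axis; points are single mice, WT in grey, 175Q in red; the dotted line marks libraries with no reads). Every 175Q mouse lies above every WT mouse for all 9, with Wt1 between 5.64 and 8.42 CPM.

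The other large rises were of weakly expressed genes. The desmosome protein Dsp was at 0.674, 0.498, 1.22 and 0.343 CPM in WT and 5.88, 6.97, 3.03 and 9.77 CPM in 175Q (3.27 ± 0.36, adjusted p = 1.89e-05), and cardiac troponin T (Tnnt2) at 3.16, 2.67, 2.40 and 2.60 CPM in WT and 11.96, 10.5, 10.7 and 10.3 CPM in 175Q (2.002 ± 0.13, adjusted p = 1.76e-07). Sfmbt2, a Polycomb-group protein, was at 4.71, 5.19, 4.87 and 4.62 CPM in WT and 17.99, 18.5, 17.9 and 14.9 CPM in 175Q (1.84 ± 0.09, adjusted p = 2.75e-08). All 3 were higher in every 175Q mouse, as the naming of the largest rises required, with a wide spread only for Dsp. The long noncoding RNA Crnde, Smim24, Klhl14, the matrix protein thrombospondin 1 (Thbs1) and the adaptor Skap1 rose by 2.35, 2.06, 1.63, 1.59 and 1.58. AW551984 was at 24.4, 53.6, 11.4 and 9.73 CPM in 175Q (1.95 ± 0.48, adjusted p = 0.00729), with a wide spread between mice, against 8.02, 4.71, 2.43 and 7.995 CPM in WT, and lost its call with the cortical marker term (adjusted p = 0.202). Oca2, a melanosome transporter, was highest in 175Q replicate 4, with 0.363, 0.339, 0.498 and 0.449 CPM in WT and 0.789, 0.702, 1.16 and 4.29 CPM in 175Q (1.91 ± 0.52, adjusted p = 0.0128), and lost its call without WT replicate 2 (adjusted p = 0.0566).

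Besides Scn4b, the 12 largest falls were of genes below 4 CPM in every 175Q mouse. Absence of overlap between the groups was a condition of being named among them. Gpx6, a glutathione peroxidase (chromosome 13, 21312125 to 21319624, plus strand), was at 6.44, 5.76, 10.6 and 2.94 CPM in WT and 0.130, 0.136, 0.0848 and 0.0802 CPM in 175Q (-5.86 ± 0.36, adjusted p = 1.16e-07). The Wnt ligand Wnt8b was at 1.74, 2.73, 3.03 and 1.504 CPM in WT and 0.0756, 0.136, 0.0242 and 0.126 CPM in 175Q (-4.61 ± 0.58, adjusted p = 5.45e-05). Abhd11os, a noncoding RNA enriched in striatum, was at 10.6, 11.5, 12.3 and 8.34 CPM in WT and 0.411, 0.974, 0.436 and 0.355 CPM in 175Q (-4.32 ± 0.26, adjusted p = 1.13e-07). In each of the 3 no 175Q mouse came near the WT range. Ptpn7, a tyrosine phosphatase, was at 14.6, 16.3, 16.98 and 10.3 CPM in WT and 1.44, 0.872, 1.296 and 1.56 CPM in 175Q (-3.49 ± 0.19, adjusted p = 6.46e-08). The transcription factor Mafa was at 5.47, 6.37, 6.64 and 6.003 CPM in WT and 0.519, 0.487, 0.593 and 0.630 CPM in 175Q (-3.45 ± 0.16, adjusted p = 2.49e-08). The calcium-dependent lipid-binding copine Cpne9 was at 21.3, 22.3, 23.04 and 26.4 CPM in WT and 2.69, 3.0004, 2.92 and 3.03 CPM in 175Q (-3.01 ± 0.33, adjusted p = 1.62e-05). Again the groups lay far apart. The remaining ones were Sec14l3 (-4.45), the protease Tmprss6 (-3.997), the activin antagonist follistatin (Fst, -3.36), AC128672.1 (-3.24) and Vwa7 (-3.24).

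Glial and vascular markers fell as well. Astrocyte markers fell in 9 of 12, with a median of -0.42. The glutamate transporter Slc1a2 was at 3432, 3252, 3450.4 and 3066 CPM in WT and 1926, 1818, 1971 and 1876 CPM in 175Q (-0.80 ± 0.07, adjusted p = 2.90e-06), and the water channel Aqp4 at 166, 144, 148 and 159.5 CPM in WT and 87.0, 75.7, 91.1 and 97.9 CPM in 175Q (-0.81 ± 0.11, adjusted p = 9.71e-05). Both were without overlap. The gap junction protein Gja1, the folate enzyme Aldh1l1 and the bicarbonate transporter Slc4a4 fell by 0.42, 0.42 and 0.53. Reactive glia genes did not rise in any of 11, and 3 fell: Cd44 (-1.04 ± 0.17, adjusted p = 4.59e-04), Osmr (-0.55) and Apoe (-0.25). With the cortical marker term 1 of the 11 fell. The complement gene C4b (0.29 ± 0.14, adjusted p = 0.147) and the astrocyte filament gene Gfap (-0.39 ± 0.19, adjusted p = 0.140) did not pass.

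Endothelial markers fell in 10 of 10, with a median of -0.45. The tight junction protein Cldn5 was at 35.5, 30.8, 26.7 and 37.9 CPM in WT and 19.8, 19.6, 24.7 and 21.2 CPM in 175Q (-0.62 ± 0.10, adjusted p = 2.90e-04), and Ly6c1, Flt1, Pecam1 and Abcb1a changed by -0.54, -0.53, -0.40 and -0.41. With the cortical marker term 6 of the 10 passed. Pericyte and fibroblast markers fell in 6 of 10, among them Rgs5 (-0.49 ± 0.07, adjusted p = 2.73e-04), and with that term 3 did. All 5 blood genes fell, haemoglobin beta (Hbb-bs) from 75.7, 50.6, 56.8 and 52.4 CPM in WT to 28.1, 22.9, 41.04 and 26.4 CPM in 175Q (-0.997 ± 0.18, adjusted p = 8.20e-04). Ependymal markers fell in 3 of 6, such as Ccdc153 (-1.12 ± 0.16, adjusted p = 1.30e-04).

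Oligodendrocyte markers fell in 6 of 12 and those of their precursors in 6 of 6. The precursor receptor Gpr17 was at 89.0, 81.4, 82.0 and 87.3 CPM in WT and 62.9, 58.4, 65.2 and 64.7 CPM in 175Q (-0.43 ± 0.07, adjusted p = 6.26e-04). Microglia markers fell in 7 of 12 by small amounts, Cx3cr1 by 0.26 and P2ry12 by 0.26. These calls depended on the fit: with total counts 3 oligodendrocyte, 2 precursor and 1 microglia genes fell, and with the cortical marker term 0, 2 and 0 did. The oligodendrocyte falls numbered 3 without WT replicate 1, WT replicate 4 or 175Q replicate 2, and 12 with no filter on low counts. The precursor falls numbered 3 without WT replicate 1, 175Q replicate 1 or 175Q replicate 4, and the microglia falls 4 without WT replicate 1, 175Q replicate 1 or 175Q replicate 2.

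Cholesterol synthesis genes fell in 16 of 20 and rose in none. The sterol methyl oxidase Msmo1 was at 94.2, 87.2, 96.7 and 88.8 CPM in WT and 53.6, 51.7, 53.8 and 59.4 CPM in 175Q (-0.75 ± 0.05, adjusted p = 5.72e-07). Hmgcs1, an enzyme early in the pathway, was at 242, 230.4, 236 and 245 CPM in WT and 148, 137, 148 and 169 CPM in 175Q (-0.66 ± 0.07, adjusted p = 7.12e-06). Both were without overlap. The sterol demethylase Cyp51 and the pathway's regulator Srebf2 fell by 0.42 and 0.40. With total counts 10 and with the cortical marker term 11 genes of this list fell.

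Of 20 nuclear genes of oxidative phosphorylation 5 fell, a share of 25% beside 16.6% of all genes, and with total counts 2 and with the cortical marker term 1 did. The complex I subunit Ndufs3 changed by -0.38 ± 0.04, adjusted p = 1.84e-05. Of 13 mitochondrial genome genes 5 fell (38.5%, beside 16.6% of all genes), such as mt-Nd2 (-0.32 ± 0.06, adjusted p = 0.00153). That count was 3 without WT replicate 1, WT replicate 3, 175Q replicate 1 or 175Q replicate 2, 3 with no sex term and 2 with total counts. Chaperones were among the few lists with more rises than falls, 4 of 12 up and 1 down. The constitutive heat shock protein Hspa8 was at 1309, 1158, 1179 and 1179.7 CPM in WT and 1588, 1673, 1520.3 and 1576 CPM in 175Q (0.40 ± 0.06, adjusted p = 1.51e-04), and the groups did not overlap. Its co-chaperone Dnajb1 rose by 0.30, and Hsp90aa1 and Hsp90ab1 by 0.29 and 0.16. Hspb1 fell (-0.56 ± 0.16, adjusted p = 0.0181), but not without WT replicate 2, 175Q replicate 1 or 175Q replicate 2, nor with the cortical marker term (adjusted p up to 0.536). With total counts 8 of the 12 rose. Of 14 interferon response genes 1 rose (7.14%, beside 16.1% of all genes). Of the 14 genes 3 rose without 175Q replicate 1 or from the 8 libraries alone, 4 with total counts and 10 with no filter on low counts. The 175Q replicate 2 mouse was highest for Ifit1 (3.99, 13.3, 4.18 and 3.03 CPM in 175Q), which did not pass (0.91 ± 0.43, adjusted p = 0.125). Of 10 glucocorticoid response genes 2 fell (20%, beside 16.6% of all genes), Cdkn1a (-1.09 ± 0.17, adjusted p = 3.65e-04) and Per1 (-0.45).

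Markers of neighbouring tissue were counted in the same way, beside 16.6% of all genes that fell and 16.1% that rose. Cortical excitatory neuron genes fell in 7 of 12, with a median of -1.17. The vesicular glutamate transporter Slc17a7 was at 229.9, 184, 104.5 and 223 CPM in WT and 41.02, 29.2, 65.02 and 87.0 CPM in 175Q (-1.76 ± 0.43, adjusted p = 0.0066), and between 65.7 and 271 CPM in 175QK772T. Neurod6, Slc30a3, Fezf2 and Rspo1 fell by 1.51, 1.70, 1.01 and 1.55. The falls numbered 4 without WT replicate 1, 175Q replicate 1 or 175Q replicate 2, and 11 with no filter on low counts. With the log of the 12 genes' summed level as a term, 4047 genes were called in place of 6876, and 2078 of the 3486 falls and 1614 of the 3390 rises remained. All 24 shared projection neuron genes were among those that remained. The summed level behind this term did not overlap between WT and 175Q, so the term cannot separate cortical tissue from genotype. The 12 genes also differed by genotype in other regions. In 175Q cortex 9 fell and 2 rose (median -0.34), and in hippocampus 8 fell and none rose. Shares of all genes in those regions are not given here. Beyond this term, the part of cortical tissue in the results was not tested. Of 12 choroid plexus genes 1 rose (Clic6, 1.10 ± 0.33, adjusted p = 0.0192). None rose without WT replicate 2 or WT replicate 4 or with the cortical marker term, 2 rose without 175Q replicate 2, 3 from the 8 libraries alone, 5 with no sex term and 12 with no filter on low counts. Ttr, the abundant choroid plexus carrier of thyroid hormone, was at 39.2 to 372 CPM in 3 of the 175Q mice and 4421 CPM in replicate 4. Thalamic markers held 3 falls and 1 rise of 7, the rise being Shox2 (adjusted p = 0.0389), which lost its call in 8 of the 16 alternatives. Septal and pallidal markers held 1 rise of 4, Trpc4 (adjusted p = 0.0176), lost without WT replicate 1, WT replicate 3 or 175Q replicate 2. Midbrain dopamine neuron markers held 2 falls and 1 rise of 6. Among the last were Nr4a2 (-2.105 ± 0.51, adjusted p = 0.00663), which the cortex also expresses and which lost its call with the cortical term (adjusted p = 0.478), and Ddc (0.54), likewise lost with that term (adjusted p = 0.098), while Th did not pass (-0.55 ± 0.21, adjusted p = 0.0643). With the cortical term Th passed (-0.96, adjusted p = 0.019), as it did in 4 other alternatives.

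**Figure D4:**
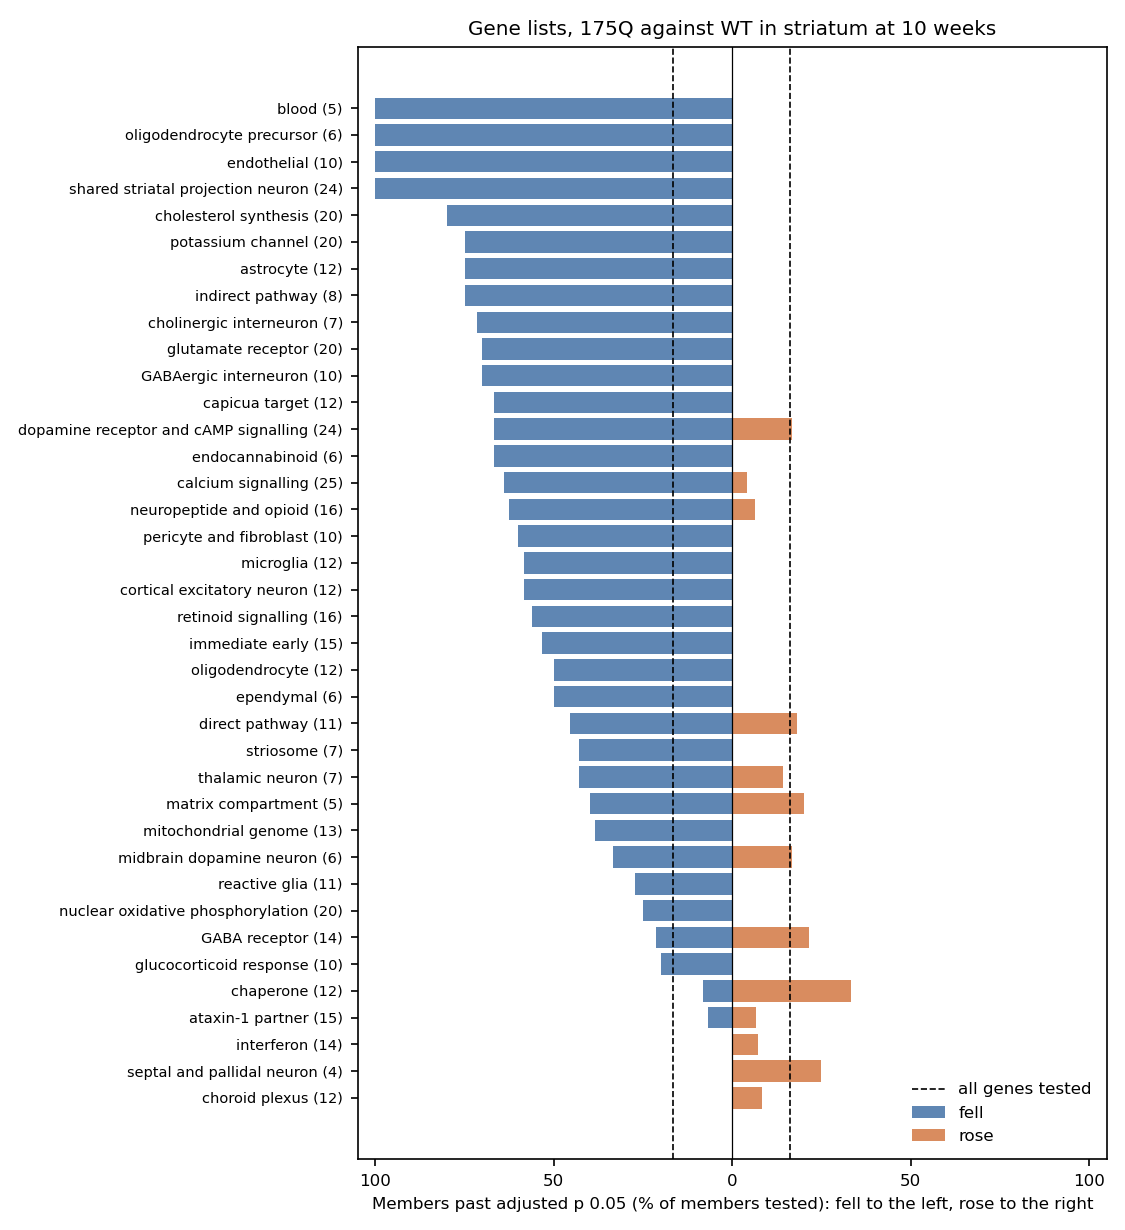
Share of tested members of 38 gene lists that fell (blue, to the left) or rose (orange, to the right) in 175Q at adjusted p below 0.05, with the number tested in brackets and dashed lines at the share of all genes (16.6% and 16.1%). Shared projection neuron, endothelial, precursor and blood genes all fell, and chaperones stand out on the right.

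The 175Q effect was next compared with that in the cortex and hippocampus of the same mice, by the difference between regions within each mouse. Most of the shared projection neuron genes had a larger fall in striatum. Between striatum and cortex 3213 of 22077 genes differed (14.6%; 8.37% lower and 6.18% higher in striatum), and among the shared genes 17 of 24 were lower and none higher. Between striatum and hippocampus 2497 of 22158 genes differed (11.3%; 6.69% lower and 4.58% higher), and 19 of the 24 were lower and none higher. The hippocampal count was 1605 without WT replicate 1. Tested within each region alone, 12 of the 24 shared genes fell and 2 rose in cortex, and 11 fell and 1 rose in hippocampus. The shares of all genes that fell or rose in these 2 regions are not given here, so these counts have no share beside them. Of the 6876 genes called in striatum, 3781 were called the same way in cortex and 2197 in hippocampus.

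Pde10a changed by 0.07 ± 0.13 in cortex against -1.69 ± 0.11 in striatum, a difference of -1.81 ± 0.17 (adjusted p = 7.42e-06). Adcy5 changed by 0.08 ± 0.04 in cortex and -1.46 ± 0.10 in striatum (difference -1.56 ± 0.10, adjusted p = 6.06e-07), and Rgs9 by -0.07 ± 0.09 in cortex and -1.28 ± 0.12 in striatum (difference -1.22 ± 0.10, adjusted p = 3.04e-06). Cnr1 changed by -0.29 ± 0.07 in cortex and -2.14 ± 0.10 in striatum (difference -1.86 ± 0.09, adjusted p = 3.60e-08). These falls thus differed by region. Other shared genes fell in cortex as well: Ppp1r1b changed there by -1.501 ± 0.09, Rasd2 by -1.45 ± 0.09 and Itpka by -1.32 ± 0.05, and their differences from striatum did not pass (adjusted p = 0.717, 0.980 and 0.197). Pdyn went the opposite way, with a larger fall in cortex (-1.67 ± 0.08) than in striatum (-0.44 ± 0.11; adjusted p of the difference = 4.68e-06). Gabrd changed in cortex (-1.65 ± 0.06), in hippocampus (-1.54 ± 0.10) and in striatum (-1.602 ± 0.07), and neither difference passed (adjusted p = 0.850 and 0.782).

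**Figure D5:**
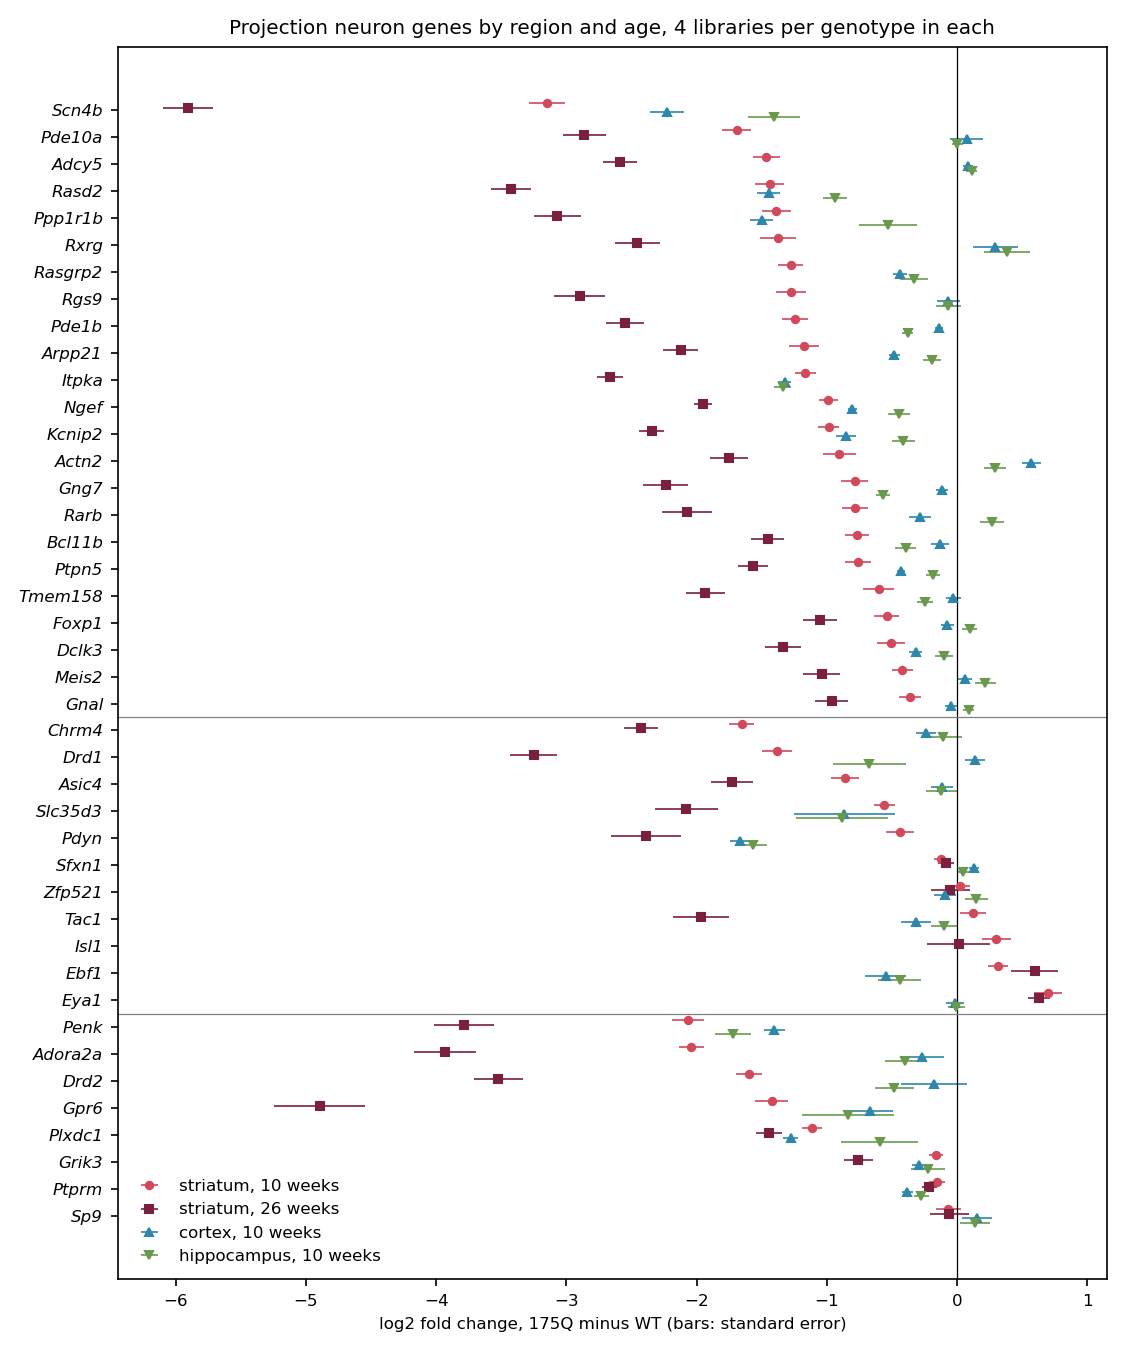
Log2 fold change of 175Q minus WT (horizontal axis; bars are standard errors, 4 mice per genotype) for 42 projection neuron genes in striatum at 10 and 26 weeks and in cortex and hippocampus at 10 weeks. Pde10a and Adcy5 sit near 0 in cortex and hippocampus, Ppp1r1b and Rasd2 are low in cortex too, and the 26-week squares lie to the left of the 10-week circles for all 22 shared genes shown that were measured at both ages.

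At 26 weeks, in other mice whose libraries were prepared in a separate batch, the same genes had larger falls. All 23 shared genes tested there fell, where 22.6% of all genes fell and 45.4% were called, with a median of -2.24 against -1.05 at 10 weeks, and 22 of the 23 passed the test of the difference between ages, Foxp1 being the exception (adjusted p = 0.0736). Of all genes 5.14% differed in that direction, the fold change being lower at 26 weeks. Rasgrp2 had no reads in the 26-week table, and 51 of the 15071 genes with a mean over 100 counts here had none there, so its age difference is not read. Age and batch cannot be told apart, and the 26-week labels give the line 2 different repeat lengths in different fields. Scn4b changed by -3.15 ± 0.14 at 10 weeks and -5.91 ± 0.19 at 26 weeks (adjusted p of the difference = 1.73e-07). Drd1 changed by -1.38 ± 0.12 and -3.25 ± 0.18 in turn (adjusted p = 1.26e-05), and Drd2 by -1.5997 ± 0.10 and -3.52 ± 0.19 (adjusted p = 8.98e-06). Tac1, which did not pass at 10 weeks, changed by -1.96 ± 0.22 at 26 weeks, and the ages differed (adjusted p = 1.98e-05). Pdyn went from -0.44 ± 0.11 to -2.39 ± 0.27 (adjusted p = 2.75e-04).

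For other genes the difference between the ages did not pass the test. Chat changed by -1.61 ± 0.10 at 10 weeks and -1.97 ± 0.23 at 26 weeks (adjusted p of the difference = 0.443), Cnr1 by -2.14 ± 0.10 and -2.47 ± 0.16 (adjusted p = 0.321) and Ryr1 by -2.78 ± 0.14 and -2.45 ± 0.15 (adjusted p = 0.405). Wt1 changed by 7.36 ± 0.35 and 6.25 ± 0.18 (adjusted p = 0.248). Across all genes 1757 of 22038 differed between the ages (7.97%). Of the 6876 genes called at 10 weeks, 5265 were called the same way at 26 weeks (76.6% of the 10-week and 58.95% of the 26-week calls) and 37 the opposite way. The 2 ages share no mice.

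In the fit 23 of the 24 shared genes were lower in 175QK772T striatum than in WT, by a smaller log2 fold change than in 175Q. The summed level of the 24 genes overlapped between the 2 mutants, at 8046 CPM in 175QK772T replicate 3 against up to 8093 CPM in 175Q. Of the 24 genes 23 fell against WT (10.3% of all genes did), with a median of -0.76, and Scn4b was at 432 ± 47.2 CPM (SD, n = 4). These values share the WT mice with those of 175Q, and in a test of the difference between the 2 mutants 126 of all genes (0.6%) and 1 of the 24 shared genes (Scn4b, 0.98 higher in 175QK772T, adjusted p = 0.00782) were called.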

How the data were processed

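Poly(A) RNA was sequenced as paired 150-base reads, and the authors deposited raw counts of read pairs per gene. Per the submitters' processing notes, bcl2fastq 2.20.0, Trimmomatic 0.33, HISAT2 2.1.0 and featureCounts of Subread 1.6.2 were used with GRCm38. Per the file headers, the 10-week table was counted on the reverse strand at a mapping quality of at least 10 with Ensembl 97 genes. Counting settings of the 26-week table are not given in the sources used here.

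The 12 striatal libraries of 10-week mice (77061358 to 93146278 read pairs) were fitted with edgeR 4.0.16 (R 4.3.3, limma 3.58.1) on genotype and sex, after filterByExpr and TMM scaling, and the fit was tested on simulated data. Quasi-likelihood p-values were adjusted over all 20998 genes. Region differences had the mouse as a block, age differences an interaction term.

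Groups come from the labels. The comparison and the 40 gene lists (504 of 505 genes matched) were chosen with earlier results of these data known. Genes were named by rule: Atxn1, the 12 largest rises and 12 largest falls without overlap at a mean of at least 1 CPM, all projection neuron markers, the 5 members of smallest adjusted p in each other list and 5 genes each way per interaction, without chromosome Y genes, Xist and unnamed gene models. Gbx2, Gfap, Hoxd1, Lhx8 and Ttr, and the genes so marked in the text, fall outside the rule and were named after their values were seen. Alternatives were DESeq2 1.42.0, RLE scaling, no filter, no sex term, a replicate block, the 8 libraries alone and leaving out each mouse. Total-count scaling and the cortical term were added after the data were seen. Other genes within the rule enter the text only through list counts, and a few are not reported here. Promoters come from RefSeq's GRCm38.p6 table.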

Additional observations from a re-analysis of the deposited data

Results flagged for a closer look

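In 7 of 134 groups of 4 mice, over 67 genes, a single library lay apart from the other 3 by Dixon's criterion at the 95% level, where chance gives about 1 in 20. All 7 were 175Q libraries. Replicate 4 stood out at 4.29 CPM for Oca2 (high) and 14.9 CPM for Sfmbt2 (low). Replicate 2 stood out at 3.82 CPM for Klhl14, 0.974 CPM for Abhd11os, 0.419 CPM for AC128672.1, 48.8 CPM for Actn2 and 14.3 CPM for Eya1. Replicate 2 is also the mouse with the highest Ifit1, and replicate 4 the one with the highest choroid plexus level.

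The 175Q effect differed between striatum and cortex in 3213 genes by the interaction test. The largest differences of log2 fold change, striatum minus cortex, were 4.30 for Wt1, 3.54 for Col17a1, 2.78 for Tnnt2, 2.64 for Fgf3 and 2.47 for Vwa5b1 on the higher side. On the lower side they were -5.73 for Sec14l3, -4.26 for Nkx2-1, -3.45 for Six3, -3.33 for Abhd11os and -3.26 for Tal1. Fgf3 lost this call without any 1 of 175Q replicates 2, 3 and 4. Nkx2-1 and Six3, transcription factors of the ventral forebrain, did not pass in striatum (log2 fold change 0.07 ± 0.09 and -0.05 ± 0.10), and in cortex alone they had too few reads to be tested.

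Between striatum and hippocampus 2497 genes differed. The largest differences were 4.52 for Dsp, 2.47 for Tnnt2, 2.32 for Gpr101, 2.01 for Ankrd63 and 1.96 for Thbs1 on the higher side. On the lower side they were -7.43 for Gpx6, -3.79 for Sec14l3, -3.64 for Abhd11os, -3.36 for Ptprv and -3.21 for Cd72. The Gpx6 difference lost its call in 7 of 10 alternatives. Dsp changed by 3.27 ± 0.36 in striatum and -1.31 ± 0.16 in hippocampus.

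Between 10 and 26 weeks 1757 genes differed in striatum. The largest differences, 10 minus 26 weeks, were 6.25 for Tmprss6, 4.53 for AC128672.1, 4.35 for Fgf3, 3.89 for Cd4 and 3.48 for Gpr6. On the lower side they were -2.57 for Atg4a, -2.42 for Il2rb, -2.29 for Tal1, -2.05 for Cyp26b1 and -1.85 for Ttc39aos1. A positive value means a lower fold change at 26 weeks. In 26-week 175Q Tmprss6 was at 0 CPM in every library, AC128672.1 at 0 to 0.028 CPM and Fgf3 at 0 to 0.204 CPM. The sizes given for Tmprss6, AC128672.1 and Fgf3 thus rest on values near the floor. Atg4a had a mean of 687.8 counts per library at 10 weeks and 13.83 at 26 weeks, so its age difference is not read. Age and batch cannot be told apart for any of these genes.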

How the results depend on the processing

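The count of 6876 called genes was 7347 with DESeq2, 6902 with RLE scaling, 7215 with no filter, 6787 with no sex term, 7133 from the 8 libraries alone and 5513 to 6455 with 1 mouse left out. The labels number replicates across genotypes and do not state what a number marks. Deviations of same-numbered WT and 175Q mice had r = 0.0899, -0.0329, -0.0562 and 0.100, and those of differently numbered mice -0.161 to 0.207. These values do not settle whether the numbers pair mice, and the main fit used no pairing. With the replicate block 6222 genes were called. Total counts gave 6426 rises and 2270 falls, and the cortical term 4047 calls with 1780 rises and 2267 falls. With 1 mouse left out, rises were 2648 to 3153 and falls 2865 to 3302, and the interactions called 2411 to 2871 (cortex), 1605 to 2182 (hippocampus) and 1224 to 1659 (age) genes. Fewer mice were tested in these fits. Of 202 called genes within the naming rule none changed direction, and the 10 called genes named outside it were not recomputed singly. As called genes, many picked for large differences or small adjusted p, the 202 could hardly reverse in refits of nearly the same libraries. With DESeq2 and RLE scaling 0 lost their call, with no filter 4, no sex term 3, the block 4, 1 mouse left out 5 to 16, total counts 21 and the cortical term 41. The cause was not tested.

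Isl1, Oprm1, Nr4a1, Calb1, Faah, C4b, Th and Ifit1 passed with no filter on low counts. Genes that did not pass in the report changed sign. With total counts Atxn1 was 0.071, Sp9 0.054, Epha4 0.029, U2af2 0.031 and Nlk 0.015. With the cortical term Tac1 was -0.10, Zfp521 -0.052, Oprm1 -0.19 and Lag3 0.085. With 1 mouse left out Zfp521 ranged from -0.022 to 0.080 (below 0 without WT replicate 1, WT replicate 4 or 175Q replicate 2), Sp9 from -0.12 to 0.016 (above 0 without WT replicate 3) and Nr4a1 from -0.41 to 0.039 (above 0 without WT replicate 1 or 175Q replicate 4). Without WT replicate 3 Atxn1 was 0.0012.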
